A study of Mus musculus with 4 samples.

Results

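Tmem178 and 9 genes of store-operated calcium entry were followed on arrays of a mouse ovarian cancer cell line grown with or without decitabine. The members were Tmem178, the calcium sensor genes Stim1 and Stim2, the channel genes Orai1, Orai2 and Orai3, the release channel genes Itpr1, Itpr2 and Itpr3, and the pump gene Atp2a2. Tmem178 was picked because it fell on these same arrays, so its difference is a description without a test. The others were added for their part in the pathway, with earlier results of these data known. Of the 10, 9 had a row with a single gene symbol among the 22180 genes measured. Itpr1 had no such row in the platform annotation used here, and no value is given for it.

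The cells were BR5FVB1-Akt, which the labels give as ovarian cancer. The 2 control samples were cultured without decitabine and the 2 treated samples with 10 uM of it for 72 h, each on its own Affymetrix Mouse Gene 2.0 ST array. Both groups were the same line in the same medium. The labels do not give the genotype of the line or say whether the controls received the solvent. The titles number 2 biological replicates in each group without saying how the cultures were separated, so the spread among the 4 arrays may be technical. A p-value of the main test rests on that spread for the gene together with the spread over all genes.

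Decitabine is a cytidine analogue that cells build into new DNA, where DNA methyltransferases stay bound to it, and CpG sites lose methylation as the cells divide. Store-operated entry begins when phospholipase C makes inositol trisphosphate, which opens the inositol trisphosphate receptors (the Itpr genes) and empties calcium from the endoplasmic reticulum (ER). Stim proteins sense the loss in the ER, move to its contacts with the plasma membrane and open Orai channels there, and the SERCA pump encoded by Atp2a2 refills the store. Tmem178 is a membrane protein of the ER, known from the macrophage and osteoclast lineage, where it binds Stim1 and restrains calcium entry and the transcription factor Nfatc1 downstream of it.

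Levels are the deposited values, read as log2 expression from their range, since their log base is not stated. A difference of 1 on this scale is a 2-fold change under that reading. No background level could be set, so no gene could be called absent. Array medians over all 41345 rows lay between 4.60 and 4.66, and Pearson's r across genes, which are not independent replicates, was 0.990 to 0.995 between arrays. Markers were checked against the label. Of 14 epithelial and ovarian surface markers, 10 lay above the median level of all genes, as did 5 of 15 macrophage, osteoclast and other leukocyte markers and 3 of 8 neuronal markers. Setting probes against each other in this way is rough, because probes differ in response. The number of arrays limits the precision.

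Tmem178 was at 9.09 and 9.15 on the control arrays and at 7.35 and 7.03 on the decitabine arrays. Both decitabine arrays lay far below both controls, with a gap of 1.75 between the nearest arrays of the groups. Its mean went from 9.12 ± 0.04 (SD, n = 2) to 7.19 ± 0.22, a log2 difference of −1.93 ± 0.14 (limma's SE), or 3.82-fold lower. This was the lowest log2 difference of the 22180 genes, which is the value that chose the gene. The treated arrays differed from each other more than the controls did, and with any 1 of the 4 arrays left out the difference ran from −2.09 to −1.78. In bulk RNA, fewer cells that express a gene and less RNA per cell cannot be told apart.

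The marker lists were read on the same arrays, because Tmem178 is best known from myeloid cells. The log2 levels of the 15 macrophage, osteoclast and other leukocyte markers summed to 71.8 and 71.2 on the control arrays and to 72.8 and 74.0 on the decitabine arrays. Of these 15, 10 had a positive log2 difference and 5 a negative one, beside 11254 and 10926 of all 22180 genes. Cd68, a lysosomal protein of macrophages that other cells also make, was at 0.45 ± 0.10 and the integrin gene Itgam at 0.50 ± 0.11. The osteoclast lineage markers were split. The protease gene Ctsk was at 0.46 ± 0.13, with treated arrays wholly above the controls. The receptor gene Tnfrsf11a was at −0.26 ± 0.14 and the phosphatase gene Acp5 at −0.19 ± 0.12, both with treated arrays wholly below the controls. The fusion genes Dcstamp (−0.10 ± 0.13) and Ocstamp (−0.01 ± 0.16) had overlapping arrays. The pan-leukocyte marker Ptprc was between 3.01 and 3.24 on all 4 arrays and the T cell receptor component Cd3e between 3.25 and 3.54. Without a background level, neither can be called present or absent.

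The 14 epithelial and ovarian surface markers summed to 96.5 and 95.7 in control and 99.1 and 98.5 in decitabine. Of their log2 differences 11 were positive and 3 negative, beside 11254 and 10926 over all genes. Msln, the mesothelin gene, was at 0.86 ± 0.10 and the keratin gene Krt8 at 0.53 ± 0.13. Of the 3 negative ones, Wt1, a transcription factor of the ovarian surface and mesothelium, was at −0.28 ± 0.10. The uroplakin gene Upk3b was at −0.19 ± 0.10 and the mucin gene Muc16 at −0.43 ± 0.18. The 8 neuronal markers summed to 36.9 and 37.4 in control and 38.1 and 39.5 in decitabine. Of their differences 7 were positive and 1 negative, with the tubulin gene Tubb3 at 0.81 ± 0.11 and the stathmin gene Stmn2 at 0.26 ± 0.10. Treated arrays lay wholly above the controls for 11 epithelial, 6 leukocyte and 3 neuronal markers, beside 23.4% of all genes. They lay wholly below for 3, 2 and 0, beside 22.5%. None of the 3 lists held a gene past the limma threshold of Benjamini-Hochberg adjusted p under 0.05. Before adjustment, at p under 0.05, there were 3 higher and 0 lower leukocyte markers (20% of the list), 5 higher and 1 lower epithelial markers (42.9%), and 1 higher and 0 lower neuronal markers (12.5%), beside 14.3% of all genes. In limma with a variance model that follows the level of a gene (an intensity trend), Cd68, Tubb3 and 4 epithelial markers (Msln, Krt8, Krt18 and Krt19) passed as higher, and Wt1 and Upk3b as lower, beside 3.68% and 3.6% of all genes. The part of these markers in the level of Tmem178 was not tested.

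**Figure D1:**
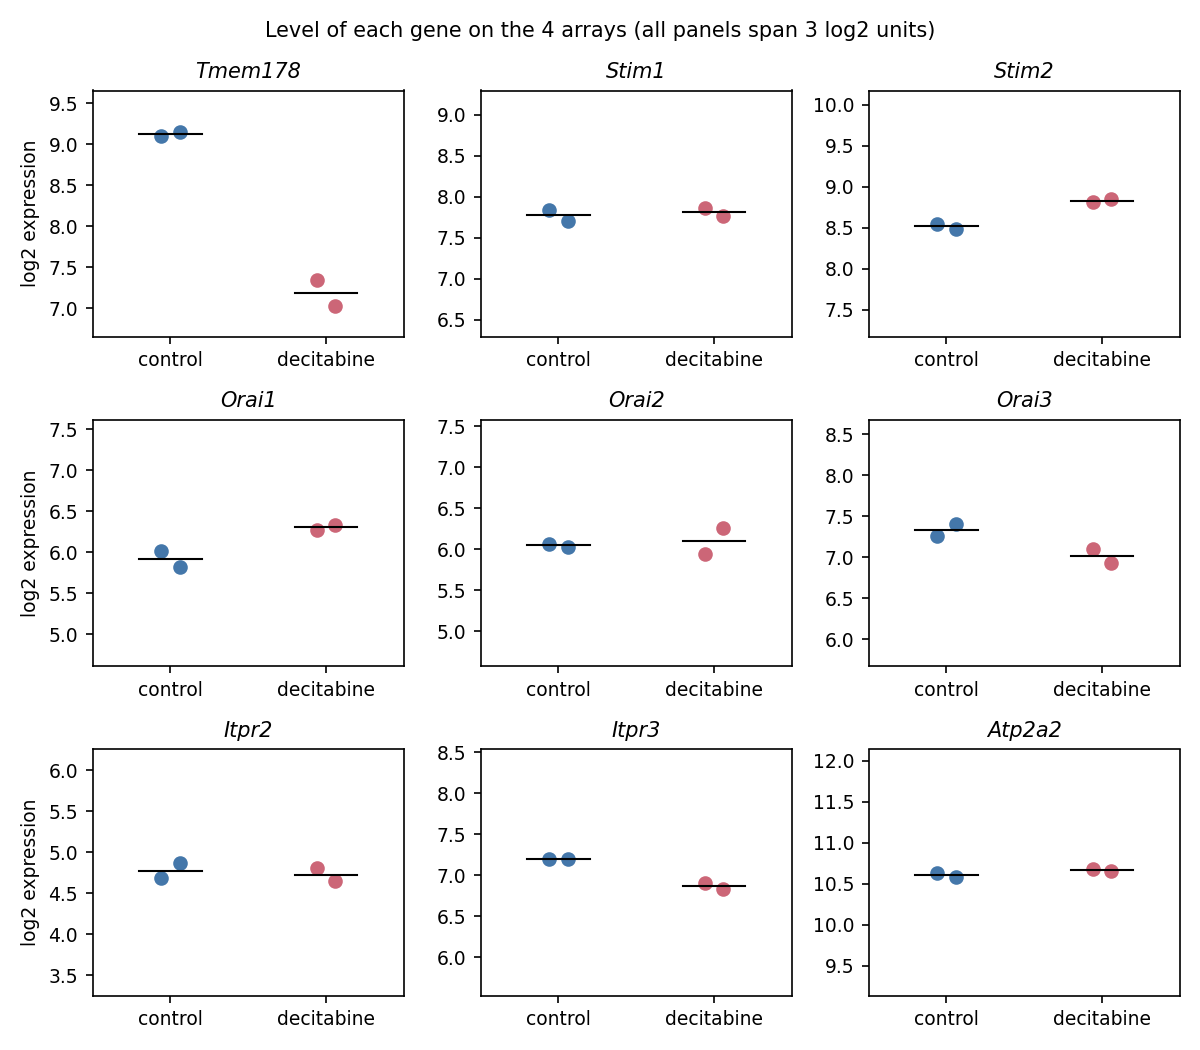
Log2 expression (vertical axes, each spanning 3 units) of the 9 measured genes on the 2 control arrays (blue) and the 2 decitabine arrays (red). Points are arrays and bars are group means. Tmem178 drops from 9.12 to 7.19, while the means of the other 8 genes move by at most 0.38.

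Because decitabine acts through CpG sites, the promoter windows of the genes, from 250 bases before to 50 after the RefSeq start (GRCm38.p6), were searched for the letters CG, which read the same on both strands. Of the 10 members, 8 matched a window in that table. Printed here are the window of Tmem178 and, from the channel family, those of Orai1 and Orai3, whose CpG counts lie far apart. Capitals mark CpG dinucleotides, and each runs from 5′ to 3′ on the gene's strand.
Tmem178 promoter, chr17:80944382-80944681, + strand: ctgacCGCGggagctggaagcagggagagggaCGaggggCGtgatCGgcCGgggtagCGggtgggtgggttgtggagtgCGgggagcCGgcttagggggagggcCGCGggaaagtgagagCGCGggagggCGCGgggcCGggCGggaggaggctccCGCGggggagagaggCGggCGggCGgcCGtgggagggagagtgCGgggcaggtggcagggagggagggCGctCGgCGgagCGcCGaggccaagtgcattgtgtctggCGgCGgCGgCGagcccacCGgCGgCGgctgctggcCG
Orai1 promoter, chr5:123014824-123015123, + strand: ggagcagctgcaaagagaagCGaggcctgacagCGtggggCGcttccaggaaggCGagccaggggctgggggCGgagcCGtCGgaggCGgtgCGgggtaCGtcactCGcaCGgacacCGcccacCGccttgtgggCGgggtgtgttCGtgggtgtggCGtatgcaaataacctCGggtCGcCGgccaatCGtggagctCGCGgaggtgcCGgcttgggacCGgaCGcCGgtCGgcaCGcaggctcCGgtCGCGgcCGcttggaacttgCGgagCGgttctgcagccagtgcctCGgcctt
Orai3 promoter, chr7:127769565-127769864, + strand: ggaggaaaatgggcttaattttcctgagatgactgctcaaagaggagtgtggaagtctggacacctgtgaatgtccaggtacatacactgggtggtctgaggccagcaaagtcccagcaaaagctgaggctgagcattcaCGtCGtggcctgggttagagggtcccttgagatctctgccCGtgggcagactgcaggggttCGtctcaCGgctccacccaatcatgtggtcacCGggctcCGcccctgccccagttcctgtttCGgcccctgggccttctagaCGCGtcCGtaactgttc

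The Tmem178 window held 37 CpG dinucleotides in 300 bases, and 5.58% of all 32851 windows of this length held at least as many. Orai1, with 36, was close to it, and Orai3, with 11, was in the range of most windows, since 41.4% held at least as many. Stim1 had 38, Stim2 39, Itpr3 30, Itpr2 26 and Orai2 24. All but Orai3 lay above the upper quartile of 20 over all windows. The windows above it belonged to genes with treated arrays below the controls (Tmem178 and Itpr3), above them (Stim2 and Orai1) or overlapping (Stim1, Orai2 and Itpr2). A relation between CpG count and the differences was not tested. Methylation was not measured in these samples.

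**Figure D2:**
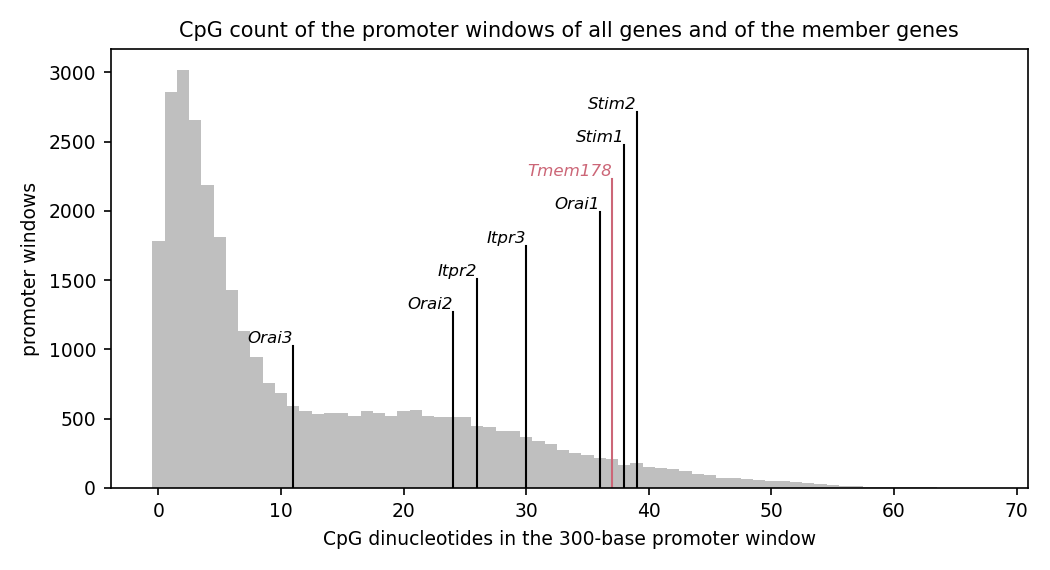
Number of promoter windows (vertical axis) by their count of CpG dinucleotides in 300 bases (horizontal axis), for all 32851 windows (grey). Vertical lines mark the member genes; Tmem178 (red) has 37, Stim2 the most with 39 and Orai3 the fewest with 11.

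Among the calcium sensors, Stim2 lay above its controls in the treated cells and Stim1 could not be separated from them. Stim1, which responds to a deep loss of ER calcium, was at 7.84 and 7.71 in control and 7.87 and 7.76 in decitabine. The groups overlapped, with a log2 difference of 0.04 ± 0.11 and a 95% interval from −0.24 to 0.32. Stim2, which responds to smaller losses and sets resting calcium, was at 8.55 and 8.48 in control and 8.82 and 8.85 in decitabine. Both treated arrays were above both controls, with a log2 difference of 0.31 ± 0.10, or 1.24-fold. In limma over all genes its adjusted p was 0.267, so it did not pass. With the intensity trend it did (adjusted p = 0.0213), but not when that model was fitted to all rows of the table (adjusted p = 0.160).

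The 3 channel genes lay on different sides of their controls, and none passed the test. Orai1, the channel subunit that carries the classical store-operated current, was at 6.02 and 5.83 in control and 6.27 and 6.33 in decitabine. Its treated arrays were both above the controls, and its log2 difference of 0.38 ± 0.11 (1.30-fold) had the largest size among the 8 genes other than Tmem178. Orai2, a subunit that can form mixed channels with Orai1, was at 6.07 and 6.03 in control and 5.95 and 6.26 in decitabine. Its treated arrays lay on either side of the controls, and the log2 difference was 0.05 ± 0.14. Orai3, found in mammals only, was at 7.26 and 7.40 in control and 7.09 and 6.93 in decitabine. Both treated arrays were below both controls, with a log2 difference of −0.32 ± 0.12, or 1.24-fold lower. In limma the adjusted p was 0.254 for Orai1, 0.902 for Orai2 and 0.328 for Orai3, and with the intensity trend it was 0.101, 0.916 and 0.0988.

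Of the release channels and the pump, Itpr3 lay below its controls, and Itpr2 and Atp2a2 were close to theirs. Itpr2, the receptor type most sensitive to inositol trisphosphate, was at 4.69 and 4.86 in control and 4.81 and 4.65 in decitabine, and its groups overlapped (log2 difference −0.05 ± 0.12). Itpr3, a type common in epithelial cells that feeds calcium to mitochondria, was at 7.20 on both control arrays and at 6.91 and 6.83 on the decitabine arrays. Its log2 difference was −0.33 ± 0.10, or 1.26-fold lower, with an adjusted p of 0.252 in limma. With genes below the median level left out of the fit, it passed (adjusted p = 0.0479). A dimmer row of Itpr3, not used in the comparison, was at 5.25 and 5.20 in control and 5.37 and 5.10 in decitabine, with a log2 difference of 0.01. The 2 rows thus disagreed, and with their mean in place of the brighter row the difference was −0.16. Atp2a2, the ER pump found in most tissues, was at 10.63 and 10.58 in control and 10.68 and 10.66 in decitabine. The treated arrays lay just above the controls, by a log2 difference of 0.06 ± 0.10.

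**Figure D3:**
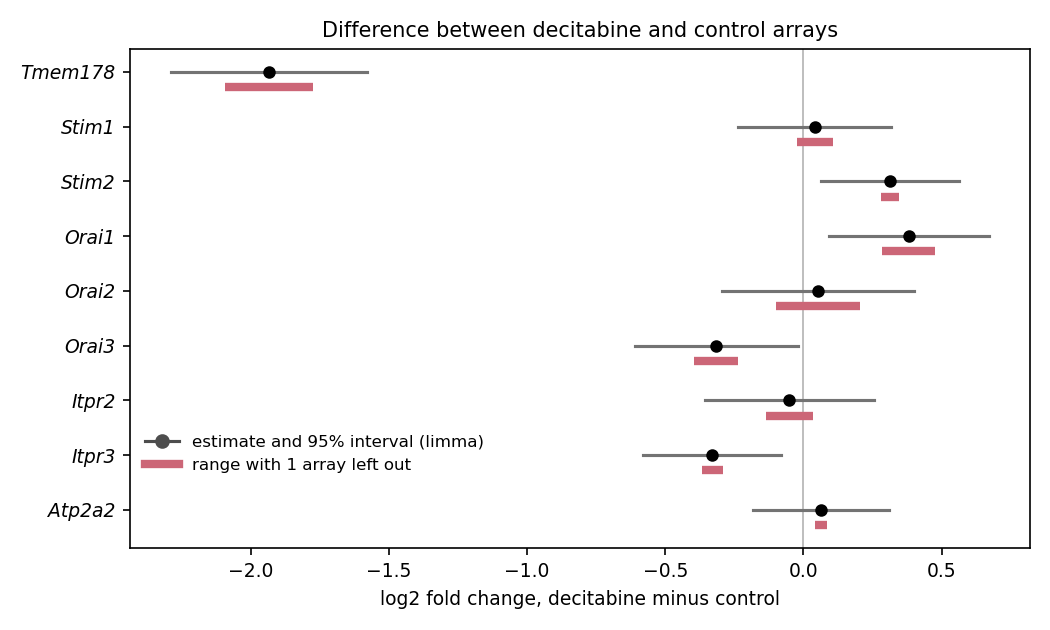
Log2 fold change of each measured gene, decitabine minus control (horizontal axis), with limma's 95% interval (grey line) and the range when any 1 array was left out (red bar). Tmem178 lies at −1.93, and the 8 other genes lie between −0.33 and 0.38. Tmem178 was picked for its fall, so its interval is descriptive and is not a test.

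Of the 8 members other than Tmem178, limma over all genes called 0 higher and 0 lower, where it called 0.131% of all genes higher and 0.0135% lower, 0.144% together. Before adjustment, at p under 0.05, Stim2 and Orai1 were higher, beside 7.34% of all genes, and Orai3 and Itpr3 were lower, beside 6.97%. These 4 of 8 stand beside 14.3% of all genes in both directions. The arrays of the groups did not overlap for 3 higher genes (Stim2, Orai1 and Atp2a2), beside 23.4% of all genes, and for 2 lower ones, beside 22.5%, so that 5 of 8 stand beside 45.9%. With the intensity trend, 1 of the 8 was called (Stim2), beside 7.28% of all genes. The median log2 difference of the 8 was 0.05 and that of all genes 0.00. Their 95% intervals all lay inside a 2-fold change in either direction, with no bound beyond 0.67 in size.

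Differences of the response within the families were compared on the same arrays, over 5 pairs. Orai1 exceeded Orai3 in its change by 0.70 and Orai2 by 0.33, and Orai2 exceeded Orai3 by 0.37. Stim2 exceeded Stim1 by 0.27, and the change of Itpr3 less that of Itpr2 was −0.28. In each pair the within-array difference of the decitabine arrays lay wholly on one side of that of the controls. Each pair held a gene whose own arrays did not overlap. The share over all gene pairs was not computed, so this count has no background. The 45.9% of all single genes that did not overlap is another measure. The Orai pairs share genes, so the 5 pairs are not independent. The exact permutation test, two-sided, gave 0.333 for every pair, before and after adjustment over the 5, which is the smallest p that 2 arrays against 2 allow. Arrays that do not overlap always give this p, so the test could not call a difference in any pair.

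Genes around the members were read from 9 lists chosen by role, with earlier results of these data known. Of their 123 genes, 111 were measured. In limma 0 of the 111 passed over all genes. Before adjustment, at p under 0.05, 4 lay higher and 11 lower, 13.5% of the 111, beside the 14.3% of all genes given above. With the intensity trend 3 passed as higher and 8 as lower, which is 2.7% and 7.21% of the 111, beside 3.68% and 3.6% of all genes. None of these calls held when the trend was fitted to all rows. With genes below the median level left out and no trend, Atp2b1 passed as higher and Nucb2, Plce1, Ppp3cc, Rcn3 and Septin4 as lower. The median log2 difference of the 111 was −0.03, and 67 of them were negative, beside 10926 of the 22180 genes. For the list counts below, the shares of all genes were 7.34% higher and 6.97% lower before adjustment. With the trend they were 3.68% and 3.6%.

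Phospholipase C genes, whose products make inositol trisphosphate, had a negative log2 difference in 9 of 12 cases, beside 10926 of 22180 over all genes. The median of the 12 was −0.05. In limma 0 of the 12 passed, and at p under 0.05 before adjustment 0 lay higher and 3 lower. The Ras-regulated Plce1 was at 7.30 and 7.28 in control and 6.76 and 6.31 in decitabine. Both treated arrays were lower, though well apart from each other, with a log2 difference of −0.76 ± 0.17 and an adjusted p of 0.188 in limma. Plcb3, which acts below G protein-coupled receptors, was at −0.35 ± 0.11, and Plcg1, which acts below receptor tyrosine kinases, at −0.29 ± 0.10. These 3 were the members of the list that passed with the intensity trend. Plcg2, a form prominent in blood cells and osteoclasts, was at 5.40 and 5.18 in control and 5.16 and 5.69 in decitabine, and its groups overlapped.

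Among 16 ryanodine receptors and partners of the inositol trisphosphate receptors, 0 passed in limma, while p before adjustment was under 0.05 for 2 higher and 2 lower genes. Itpka, a kinase that turns inositol trisphosphate into the tetrakisphosphate, was at 5.26 and 5.33 in control and 4.58 and 4.64 in decitabine. Its treated arrays were clearly below the controls, with a log2 difference of −0.69 ± 0.10, and it had the smallest adjusted p of the 111 genes (0.106). It passed with the trend, and also when only genes above the 25th percentile of level were tested without one. Itpripl1, whose name marks it as like an interacting protein of the receptor, was at 0.31 ± 0.10 and passed with the trend. Bcl2, which binds the receptors at the ER besides its part in cell survival, was at −0.13 ± 0.10.

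Direct modulators of store-operated entry, 15 genes, had a median log2 difference of 0.05, and limma called none with or without the trend. Before adjustment 0 lay higher and 1 lower at p under 0.05. The lower one was the septin gene Septin4 (−0.46 ± 0.10), and the next smallest p belonged to Esyt1, a tether of the ER to the plasma membrane (0.19 ± 0.11). Tmem178b, the closest relative of Tmem178 by name, was at 4.10 and 3.72 in control and 3.75 and 4.56 in decitabine. Its treated arrays spanned the controls, so no direction could be read. Saraf, which switches Stim1 off after refilling, was at 0.07 ± 0.10, Stimate, which helps Stim1 reach the plasma membrane, at −0.19 ± 0.11, and Tmco1, a channel that relieves an overfull ER, at 0.07 ± 0.12.

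Calcium-binding proteins of the ER had a negative log2 difference in 12 of 15 cases, beside 10926 of 22180 over all genes. The median of the 15 was −0.09, and 0 passed in limma without a trend. The reticulocalbin gene Rcn3 (−0.34 ± 0.10) and the nucleobindin gene Nucb2 (−0.36 ± 0.10) were the 2 lower genes with p under 0.05 before adjustment, against 0 higher, and both passed with the trend. The main store buffer gene Calr was at −0.11 ± 0.10 and the chaperone gene Hspa5 at 0.04 ± 0.10. Of 8 other ER and Golgi pumps and SERCA regulators, none passed in limma with or without the trend or reached p under 0.05 before adjustment (0 genes). The Golgi pump genes Atp2c1 (−0.16 ± 0.10) and Atp2c2 (0.40 ± 0.25) had the smallest p-values. The same held for 6 TRPC channels, where Trpc7 was at 0.32 ± 0.16, Trpc2 at −0.08 ± 0.12 and Trpc1 at 0.01 ± 0.12.

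Of 11 genes of calcium export at the plasma membrane, 0 passed in limma, while p before adjustment was under 0.05 for 1 higher and 1 lower gene. The pump gene Atp2b1 was at 9.10 and 9.22 in control and 9.51 and 9.49 in decitabine, a log2 difference of 0.34 ± 0.10. Atp2b4, another pump of the same family, was at 8.43 and 8.13 in control and 7.93 and 7.55 in decitabine, a log2 difference of −0.54 ± 0.18. These 2 pump genes lay on opposite sides of their controls without overlap, and both passed with the trend. Among 10 mitochondrial genes, where 0 passed in limma and p before adjustment was under 0.05 for 1 higher and 0 lower, the inner membrane gene Letm1 was at 0.32 ± 0.10 and the outer membrane channel gene Vdac2 at 0.24 ± 0.10, and Vdac2 passed with the trend.

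Downstream of entry, calmodulin activates calcineurin, which frees NFAT factors to enter the nucleus. Of 18 measured genes of this group, 15 had a negative log2 difference, beside 10926 of 22180 over all genes. The median of the 18 was −0.06. In limma 0 passed, and before adjustment 0 lay higher and 2 lower at p under 0.05. The calcineurin catalytic subunit Ppp3ca was at 9.12 and 9.13 in control and 8.84 and 8.85 in decitabine, a difference of −0.28 ± 0.09, and it passed with the trend. Ppp3cc, a second such subunit, was at −0.38 ± 0.11. Nfatc1, the factor that Tmem178 restrains in osteoclast precursors, was at 5.07 and 5.17 in control and 5.17 and 5.27 in decitabine, with a log2 difference of 0.10 ± 0.10 and an interval reaching across 0. Rcan1, a calcineurin inhibitor that NFAT induces, was at 7.66 and 7.50 in control and 7.66 and 7.62 in decitabine, and its groups overlapped.

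**Figure D4:**
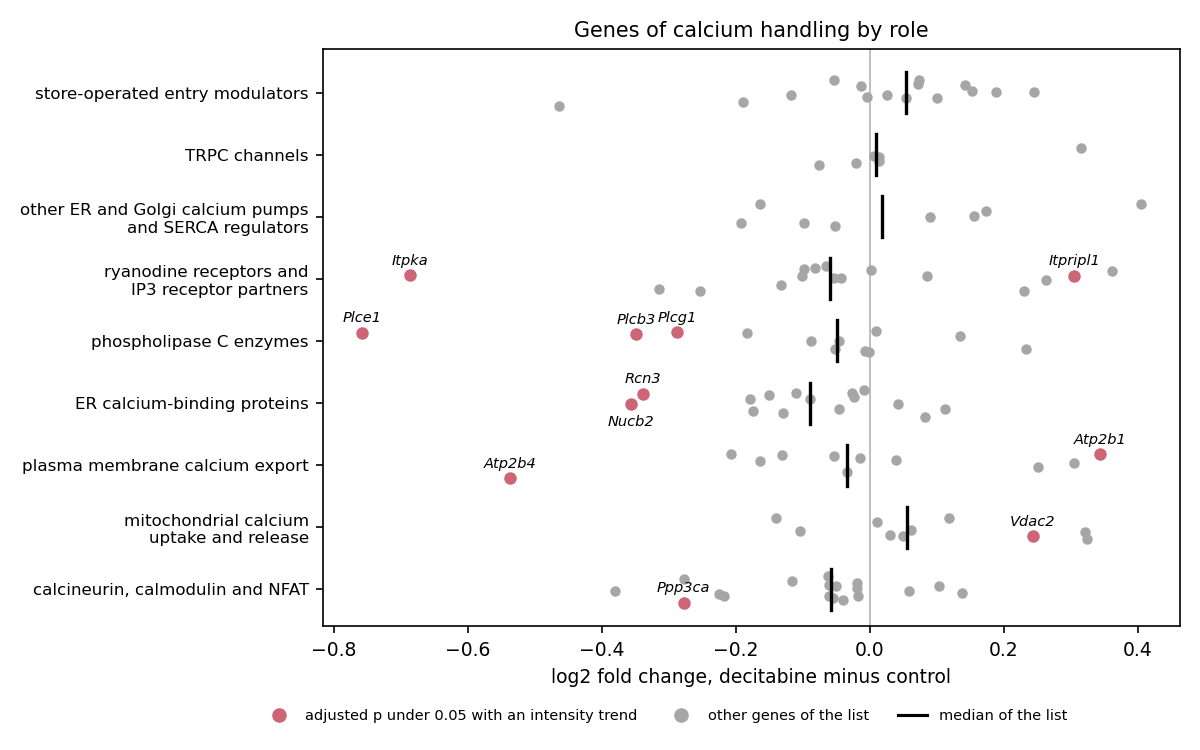
Log2 fold change, decitabine minus control (horizontal axis), of the 111 measured genes in 9 lists of calcium handling (rows). Red points passed an adjusted p under 0.05 with an intensity trend, grey points did not, and black bars are list medians; 3 red genes lie above 0 and 8 below, and no list median is beyond 0.09 in size.

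The genes whose values over the 4 arrays were most like those of Tmem178 (smallest Euclidean distance after each gene's control mean was subtracted) were Angptl7, Igfbp5, Ggt5, Ccbe1 and Pipox. Since their distance follows the fall itself, no test is given. Angptl7, an angiopoietin-like secreted protein, was nearest, at a distance of 0.49 and with levels of 8.65 and 8.47 in control and 6.88 and 6.91 in decitabine. Igfbp5, which binds insulin-like growth factors, was at 7.73 and 7.52 in control and 6.29 and 5.74 in decitabine. Ggt5, a gamma-glutamyltransferase that cleaves glutathione conjugates, was at 6.72 and 6.40 in control and 4.99 and 4.87 in decitabine. Like Tmem178, each of these had treated arrays well below its controls. Ccbe1, a secreted protein of lymphatic vessel growth, differed by −1.51 and Pipox, a peroxisomal oxidase, by −1.41.

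The neighbours of Tmem178 on chromosome 17, taken from RefSeq's gene order after its value was known, were compared as well. Thumpd2, the next protein-coding gene after Tmem178, was at 6.54 and 6.77 in control and 6.35 and 6.14 in decitabine, a log2 difference of −0.41 ± 0.13. Its treated arrays were both below its controls, and its adjusted p in limma was 0.294. Slc8a1, the sodium-calcium exchanger gene that follows it, was between 3.64 and 3.69 on all 4 arrays, and Pkdcc, a secreted kinase gene beyond it, was at −0.09 ± 0.13. On the other side, the protein-coding gene next to Tmem178 was not among the genes measured. Beyond it, Cdkl4 was at −0.07 ± 0.11, the Ras activator gene Sos1 at −0.16 ± 0.11 and Arhgef33 at 0.06 ± 0.11. None of the 6 neighbours passed in limma, with or without the trend. Among these 6, the p of Thumpd2 alone was under 0.05 before adjustment.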

How the data were processed

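Per the labels' protocols, total RNA was labelled with a whole-transcript kit and hybridised to Affymetrix Mouse Gene 2.0 ST arrays. The authors deposited 1 value per probe row and array, taken here as log2 expression from the range of the values (0.55 to 13.26). Summarisation, background correction, normalization and log base are not given in the sources used here, so fold changes rest on that reading. Of 41345 rows, 23521 carried 1 platform symbol. For 1082 genes with several rows the row with the highest mean was kept, which left 22180 genes.

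The test was limma's moderated linear model (version 3.58.1, R 4.3.3) without an intensity trend, two-sided, on all 22180 genes at once. For each gene it joins 2 residual degrees of freedom with 3.07 from a variance prior over all genes. An SE here is thus not a gene's own spread alone. The p-values of the model were adjusted by Benjamini-Hochberg over these genes and called under 0.05, and its intervals are at 95%. The script was tested on 10 simulated data sets of 4 arrays, each with 200 changed genes and noise drawn from limma's variance prior. It recovered 0.149% of 1.5-fold, 28.4% of 2-fold and 91.8% of 4-fold changes, and 6.12% of its calls were false. Most changes of 1.5-fold or 2-fold were thus missed, so a gene that did not pass cannot be called unchanged. Figures were drawn with matplotlib 3.10.9.

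The members and gene lists were chosen with earlier results of these data known. Named are all members, the 2 genes of each list with the smallest p, 12 genes set for their role, any list gene past the threshold and the 5 genes most like Tmem178. The neighbours of Tmem178 and genes called under other settings were named after their values were seen. So were Ptprc, Cd3e, Ctsk, Tnfrsf11a, Acp5, Dcstamp, Ocstamp and Muc16. One list gene was matched by an older symbol, and it is not named. Group and replicate numbers come from sample titles. Alternatives are in the closing section.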

Additional observations from a re-analysis of the deposited data

How the results depend on the processing

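The 4 members with non-overlapping arrays and a log2 difference over 0.3 in size (Stim2, Orai1, Orai3, Itpr3) kept their direction under all 14 alternatives, as did Tmem178 and Atp2a2. For most alternatives this was fixed in advance. Without overlap, leaving out 1 array cannot turn the direction, and the variance model, the block and the genes fitted leave the estimate unchanged. Centred arrays shift every gene alike, and array medians between 4.60 and 4.66 lie too close to turn a difference over 0.3. Quantile normalization could have turned a direction, as could the mean of a gene's rows for Itpr3, the 1 member on several rows. Leaving out 1 array gave −0.023 to 0.11 for Stim1, turned without control replicate 2 and without decitabine replicate 1 (−0.011). For Itpr2 it gave −0.14 to 0.035, turned without control replicate 2 and without decitabine replicate 2 (0.027). For Orai2 it gave −0.10 to 0.21, turned without decitabine replicate 2. The count of other members called went from 0 to 1 higher with the intensity trend (Stim2) and from 0 to 1 lower among genes above the median level (Itpr3), where 7 of the 8 could be tested because Itpr2 lay below it. Why these calls differ was not tested. Pathway genes called went from 0 to 3 higher and 8 lower with the trend, 1 lower above the 25th percentile of level, and 1 higher and 5 lower above the median, with 99 and 67 of the 111 still tested.

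Over all genes the 29 higher and 3 lower became 817 and 798 with the trend, 114 and 51 with the trend on all rows (chosen after seeing the data), 151 and 64 above the 25th percentile, 635 and 616 above the median, and 0 and 0 with all rows fitted. Lower genes became 8 with centred arrays and 5 with the mean of a gene's rows, and higher genes 15 with robust eBayes. Leaving out any 1 array, where a lone array was assumed to vary like the other group, gave 0 to 0 calls in either direction. With the replicate number as a block there were 0 higher and 0 lower, and no call among the members or pathway genes changed. The labels name no shared culture or day. With 2 pairs the deviations of same-numbered arrays correlated at −0.02. This cannot tell whether the cultures were paired, because the deviations of 2 arrays in a group mirror each other. The causes of these shifts were not tested. No background level could be set, so the size of differences in dim genes such as Itpr2, Tmem178b and Slc8a1 is uncertain.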
